A study of Mus musculus with 18 samples.

Results

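The comparison described here is that of Dnmt1 KO embryonic stem cells (ESCs) at day 3 with Dnmt1 KO ESCs at day 1, and it asks how fast different parts of the genome lost CpG methylation during the main phase of loss. It rests on 4 of the 18 whole-genome bisulfite libraries of the series, chosen by genotype and day alone: 2 biological replicates at day 1 and 2 at day 3. The cells were mouse ESCs grown in serum with LIF in which both Dnmt1 alleles carried loxP sites and were deleted by Cre after tamoxifen was added. The labels name E14 as the background strain, whereas the methods describe a C57BL/6 conditional line, so the strain cannot be settled here. The controls, labelled wildtype, were sampled on the same days, and their 2 libraries at day 1 and 2 at day 3 are given as the background. Neither the number of clones behind the line nor the share of cells that had deleted Dnmt1 by day 1 is given in the sources used here, and a mixture of deleted and undeleted cells cannot be told apart from a uniform partial loss in these bulk libraries.

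Dnmt1 is the maintenance DNA methyltransferase: after replication it restores methylation on the newly made strand of a CpG whose parental strand carries it. Without it, methylation is diluted as cells divide, while the de novo enzymes Dnmt3a and Dnmt3b, which are active in ESCs, can still methylate unmethylated cytosines and differ in the flanking bases they favour. Tet enzymes oxidise methylcytosine and so add to its loss.

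Each library held between 7898404 and 10881547 calls of a CpG cytosine as methylated or unmethylated, at 1.21 to 1.25 calls per cytosine covered, so single CpGs could not be read and calls were summed over tiles, genes or classes of CpGs. Between 6.78% and 8.28% of calls fell on cytosines with over 20 calls, far above this mean depth, and some results are also given without them. Methylated calls made up 0.244% to 0.318% of those in the mitochondrial genome, taken here as the share of unconverted cytosines. The deletion of Dnmt1 itself cannot be read from methylation calls and was not checked.

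Across the autosomes, 69.9% and 70.2% of calls were methylated in the Dnmt1 KO libraries of day 1, and 33.4% and 34.6% in those of day 3. The groups did not overlap. Methylation therefore dropped by 36.1 points, from 70.1% ± 0.186 to 34.0% ± 0.833 (SD, n = 2 each), and 48.5% of the day 1 level remained. In the controls the mean level was 76.1% at day 1 and 75.6% at day 3, so 99.4% remained, and Dnmt1 KO cells were already below the controls at day 1. The exact permutation test of 2 against 2 libraries gave a two-sided p = 0.333, which is the smallest p that this design can give. The share of the day 1 level that remained is the measure used below for the speed of loss: a low share is a fast loss.

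The speed of loss depended on the bases around the CpG, and the hexamers at either end of the range are shown here. They are written 5′ to 3′ from the strand that carries the cytosine called, with the CpG in capitals and the 2 bases on either side in lower case. Every possible hexamer of this form was compared over CpGs with fewer than 10 CpGs within 250 bp, at a median of 25226 calls per hexamer and library. The slowest loss was at taCGgc, where 64.0% of the day 1 level remained. It was followed by taCGcc with 63.5% remaining, tcCGgc with 63.2%, taCGcg with 62.6% and cgCGcg with 62.4%. The fastest loss was at ggCGgg, where 31.2% remained. Next came aaCGtg with 33.0% remaining, ggCGtg with 33.3%, atCGtg with 33.4% and gtCGtg with 34.1%.

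At taCGgc the level was 82.5% and 82.6% at day 1 and 52.1% and 53.5% at day 3, so 64.0% remained. At ggCGgg it was 64.8% and 65.3% at day 1 and 19.7% and 20.9% at day 3, so 31.2% remained. The day 3 libraries of the slow flank lie above those of the fast flank, but so do the day 1 libraries. Both flanks were picked as the ends of the range in these same libraries, so their separation is a description and not a test. At day 6, in the single Dnmt1 KO library of that day, the 5 slowest stood at 40.9% to 44.8% and the 5 fastest at 13.02% to 14.8%.

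Deviations were tested with limma on log2 levels centred on the median hexamer of each library. Of all hexamers, 87 were slower than the median (34% called) and 70 faster (27.3% called), at an adjusted p below 0.05 and a deviation of at least 0.1 on the log2 scale. All 157 deviated to the same side in all 4 pairings of a day 3 with a day 1 library. taCGgc deviated by 0.45 ± 0.0113 (SE) and ggCGgg by -0.58 ± 0.0152. Between control day 1 and day 3 no hexamer was called by the same limma test, 70 had an unadjusted p below 0.05, and deviations ran from -0.04 to 0.03. The SD of the deviations was 0.209 in Dnmt1 KO and 0.0110 in the controls.

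**Figure D1:**
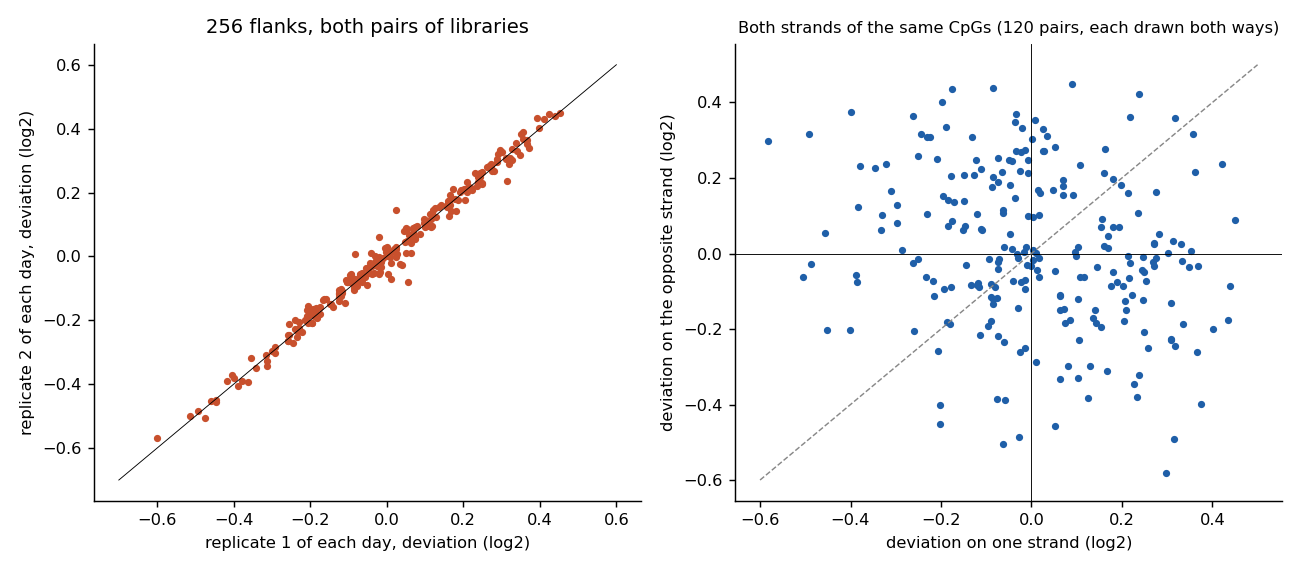
Left, each point is 1 hexamer, with the log2 deviation from the median hexamer between the replicate 1 libraries of day 3 and day 1 on the x axis and between the replicate 2 libraries on the y axis. The points follow the diagonal. Right, the deviation of a hexamer against that of the hexamer on the opposite strand of the same CpGs, for 120 pairs each drawn both ways. The points spread over all 4 quadrants and do not follow the dashed line of equality.

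Across hexamers, the deviation from the replicate 1 libraries and that from the replicate 2 libraries had a Pearson r of 0.993, given as a description because the hexamers share their libraries. A sum of separate effects of the 4 flanking bases accounted for 71.4% of the variance across hexamers. The base 2 before the CpG made the largest difference: 51.1% of the day 1 level remained after a T, 49.6% after a C, 42.5% after a G and 42.5% after an A. At the base 2 after the CpG, 52.2% remained with a C and 43.8% with a G. At the base directly after it, 52.0% remained with a C and 44.2% with a T. The range over bases was 7.55 points at the position 3 after the CpG and fell to 2.95 points at the position 6 after it, whereas in the controls no position within 6 bases ranged over more than 1.02 points.

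Pairs of bases showed the same pattern more sharply. Of the 16 hexamers with ta before the CpG, 14 were slower and 0 faster, and a median of 56.7% remained. Of the 16 with gg before it, 0 were slower and 9 faster, with a median of 40.1%. After the CpG, cc and gc each had 14 of 16 slower and 0 faster, while tg had 0 slower and 12 of 16 faster with a median of 39.6%. No cause of the dependence on flanking bases was tested.

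Because a hexamer is read from 1 strand, the same CpG carries a different hexamer on its other strand. Among the 120 pairs of hexamers that are reverse complements, leaving aside the 16 palindromes, the strands differed in speed in 92 pairs (76.7% called) by limma on the difference between strands, at an adjusted p below 0.05 and 0.1 on the log2 scale. This test was added after the hexamer results were seen. In 31 pairs one strand was among the slower and the other among the faster hexamers, and in 12 both strands were called to the same side. In the controls 0 pairs were called by the same test and 17 had an unadjusted p below 0.05, with a largest difference of 0.0432.

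The widest difference lay between ccCGcc and its opposite strand ggCGgg. The ccCGcc strand kept 57.5% of its day 1 level and went from 75.1% to 43.2%, while the ggCGgg strand kept 31.2% and went from 65.0% to 20.3%. The difference was 0.88 ± 0.0152 (SE) on the log2 scale, and the strands already differed in the controls, at 80.9% and 75.1% on day 1. Next came caCGcc, which kept 58.3%, against ggCGtg, which kept 33.3%. On day 3, tcCGcc stood at 47.2% and its opposite strand ggCGga at 25.7%. In all 3 pairs the strand with C directly after the CpG was the slower one.

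The order of hexamers was also compared with that at denser CpGs, which are a separate set of CpGs in the same libraries. The log2 share remaining at 10 to 14 CpGs had a Pearson r of 0.952 with the deviations in sparse CpGs. It was 0.888 at 15 to 24 CpGs, 0.381 at 25 to 39 and -0.0514 over 180 hexamers at 40 or more, so the order was not kept in the densest CpGs, where levels are low. Among isolated CpGs the share ran from 27.0% to 58.3% over hexamers, and at 10 to 14 CpGs from 33.9% to 68.4%.

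Local density was the second axis along which speed varied. Autosomal CpGs were classed by how many CpGs, themselves among them, a window reaching 250 bp each way held. Isolated CpGs, with 1 to 2, stood at 72.2% and 73.2% on day 1 and at 28.7% and 30.4% on day 3. CpGs in classes of 10 to 14 began at a like level, 72.4% and 72.8%, but stood at 37.7% and 38.9% on day 3. The day 3 libraries of these classes did not overlap.

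The share that remained rose with density from 40.6% at 1 to 2 CpGs to 44.8% at 3 to 4, 49.5% at 5 to 9 and 52.7% at 10 to 14. Over the 4 pairings of libraries it ran from 39.2% to 42.1% in the first class and from 51.7% to 53.7% in the last, so these ranges did not overlap. At 15 to 24 CpGs 54.1% remained, or 50.7% once cytosines with over 20 calls were left out. In the controls between 97.9% and 101% remained in these 5 classes. CpGs of the class of 25 to 39 went from 13.4% to 7.01%. Those with 40 or more stood at 1.74% on day 1 and 1.08% on day 3, where the unconverted share is a larger part of the level than in the other classes.

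The rise up to 10 to 14 CpGs was also present at an equal mix of the 2 bases on either side. Bases further out were not made equal. In sparse CpGs the share ranged over 7.55 points at the position 3 after the CpG, so their part in the rise was not tested. When every class was given the same mix of 246 hexamers, 41.3% remained at 1 to 2 CpGs, 45.1% at 3 to 4, 49.3% at 5 to 9, 51.0% at 10 to 14 and 50.4% at 15 to 24. This standardisation was added after the data were seen, and leaves out cytosines with over 20 calls.

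**Figure D2:**
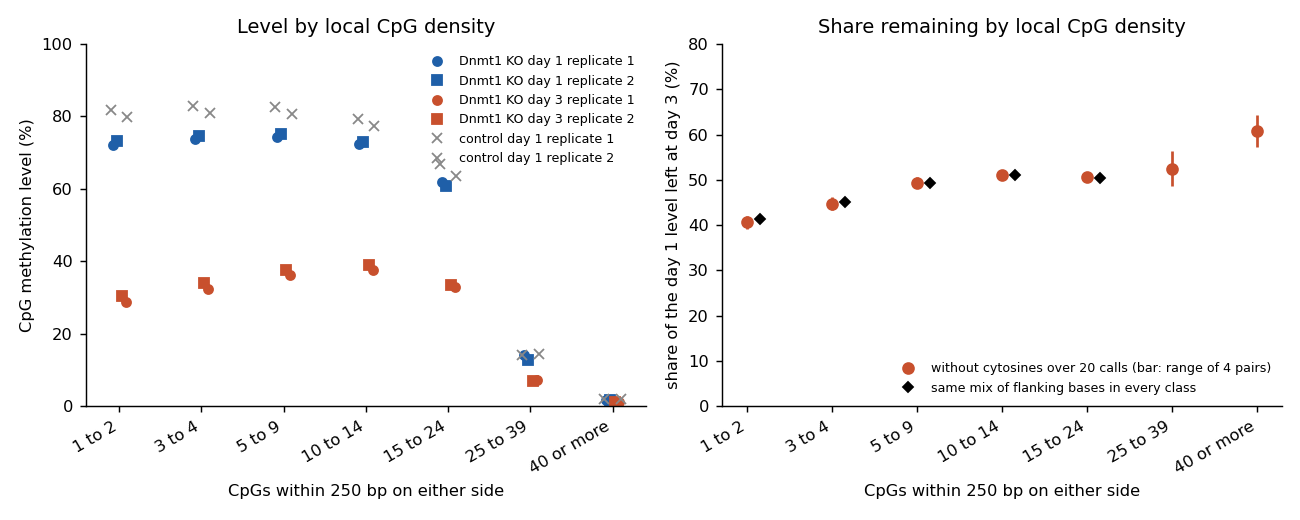
Left, the CpG methylation level in percent for each Dnmt1 KO library of days 1 and 3 and each control library of day 1, by the number of CpGs within 250 bp. Right, the share of the day 1 level that was left at day 3 in percent, without cytosines of over 20 calls and with bars for the range over the 4 pairings of libraries, and black diamonds for the same mix of flanking bases in every class. The share rises from 40.6% for isolated CpGs to 51.2% at 10 to 14 CpGs.

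The level a region started from was read in the 9 control libraries, which take no part in the contrast, over 236708 autosomal tiles of 10 kb with at least 50 control calls. Cytosines with over 20 calls were kept here. Tiles that started at 40% to 50% kept 43.5% of their day 1 level, those at 70% to 80% kept 45.0% and those at 80% to 90% kept 50.1%. Tiles at 10% to 20% kept 40.6%, falling from 16.2% to 6.59%. The 62 tiles under 10%, which stood at 6.03% on day 1, kept 55.6%, with 46.3% to 66.8% over the 4 pairings of libraries. Speed also differed with the number of CpGs at a like starting level. Among tiles that started at 80% to 90%, those with under 40 CpGs kept 38.0% and those with 120 or more kept 54.7%. Both kinds began near each other, at 74.4% and 78.3% on day 1, and stood at 28.3% and 42.8% on day 3.

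**Figure D3:**
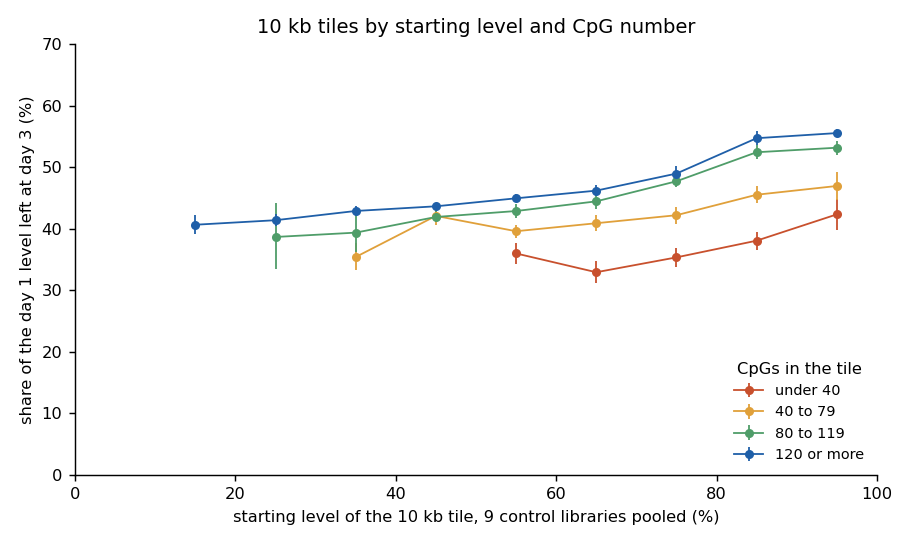
The share of the day 1 level left at day 3, in percent, for 10 kb tiles by the pooled control level on the x axis in steps of 10 points. The 4 lines are classes of CpGs per tile and the bars are the range over the 4 pairings of libraries. At a start of 80% to 90% the lines run from 38.0% with under 40 CpGs to 54.7% with 120 or more.

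Methylation fell across the whole genome at the scale of 100 kb. Of 26398 tiles, 23274 reached 100 calls in each of the 18 libraries and entered the test. By a quasi-binomial model with an adjusted p below 0.05 and a change of at least 10 points, 23272 were lower at day 3 (100% called after rounding) and 0 were higher, and between control day 1 and day 3 it called 0 lower and 1 higher. The edgeR model for methylation on the 4 libraries also called 23272. The median tile fell from 73.3% to 33.1%. Shares remaining ran from 35.6% at the 5th percentile to 56.8% at the 95th.

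Against the median autosomal tile of each library, 1370 tiles were slower (5.89% called) and 96 faster (0.412% called) by limma, at an adjusted p below 0.05 and a log2 deviation of at least 0.2. Centred on the level of the whole library instead, 106 were slower and 39 faster, so the share of calls that were slower moved from 93.5% to 73.1%. This centring moved the median deviation by -0.10, which does not by itself give fewer faster calls, and the cause of that drop was not tested. These calls leaned on both day 3 libraries: 380 slower and 2 faster were called without replicate 1 of day 3, and 148 and 0 without replicate 2. The first tile deviations and the second, from each replicate pair, had an r of 0.429 over tiles. The SD of the deviations was 0.208 against a median SE of 0.125, and it was 0.0769 between control day 1 and day 3, where 2 tiles were slower and 0 faster. In Dnmt1 KO deviations ran from -0.355 at the 5th percentile to 0.320 at the 95th, so the counts do not show that slow tiles were commoner. The 5 fastest tiles named below held 107 to 208 calls per library (SE 0.215 to 0.248). The 5 slowest held 112 to 804 (SE 0.0807 to 0.233). The part of depth in the counts was not tested.

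Slower tiles were CpG-rich and gene-rich. They held a median of 1119 CpGs and 44.9% GC, with 77.7% of their bases in genes, against 796 CpGs, 41.6% GC and 38.1% over all tested tiles. They went from a median of 76.0% to 43.7%. Faster tiles held a median of 479 CpGs and 37.2% GC, and 41.7% of them touched no gene, against 24.9% of all tested. They went from a median of 74.9% to 21.0%. Across tiles the deviation had a Spearman rho of 0.53 with CpG number, 0.52 with GC content, 0.216 with gene cover and 0.109 with the control level, all as descriptions over 23274 tiles that share their libraries.

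**Figure D4:**
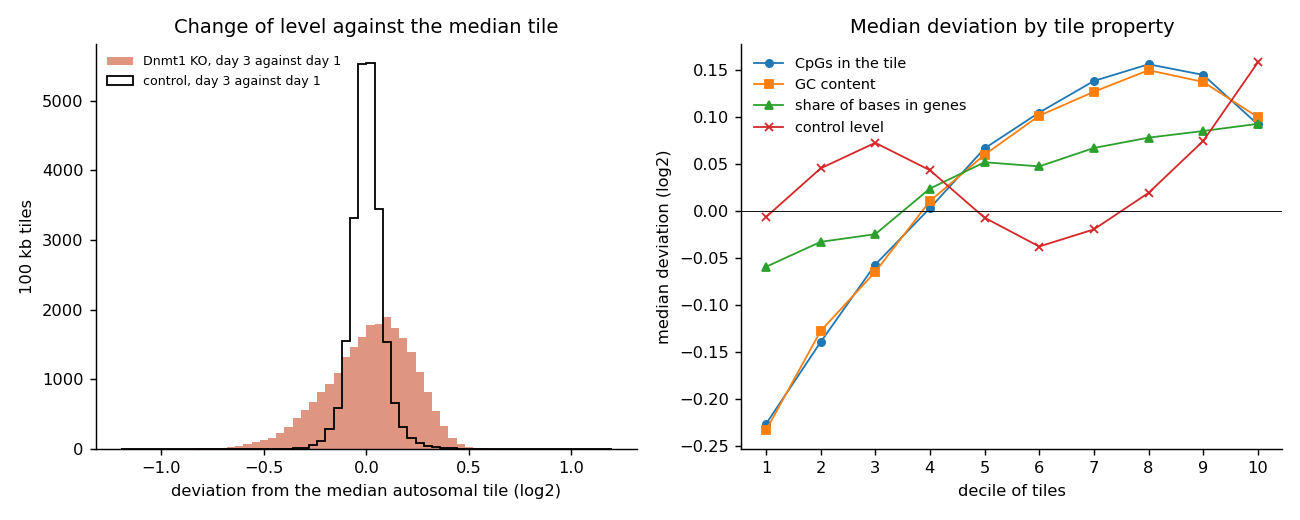
Left, the number of 100 kb tiles by log2 deviation from the median autosomal tile, for Dnmt1 KO day 3 against day 1 (filled) and control day 3 against day 1 (line). The Dnmt1 KO distribution is the wider one, with an SD of 0.208 against 0.0769. Right, the median deviation by decile of tiles for 4 properties, which rises from -0.23 to 0.16 between the first and the eighth decile of CpG number.

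Few tiles were called against tiles of like starting level and CpG number. With each library centred within 10 by 10 bins of both, limma called 3 tiles slower (0.0129% called) and 0 faster, with 1786 at an unadjusted p below 0.05. Over all tiles the SD of the deviations went from 0.208 to 0.153. The tiles named below were picked for their deviation in these data. In this fit they deviated by -0.76 to -0.65 in the 5 fastest and by 0.24 to 0.90 in the 5 slowest. None of them was called, with adjusted p from 0.209 to 0.551 by limma. The part of start and CpG number in the lost calls was not tested. The r between replicate pairs fell from 0.429 to 0.150. Deviations also ran along the chromosome: between a tile in the replicate 1 pair and the tile 100 kb further on in the replicate 2 pair, r was 0.346, and it was 0.196 at 1000 kb and 0.0187 at 5000 kb. Within bins of start and CpG number the value at 100 kb was 0.0566. Each tile was also centred on the level expected from the 2 bases on either side and the local density of its own CpGs. Cytosines of over 20 calls were left out. This alternative was added after the data were seen and is meant by the expected level from here on. It takes no account of bases further out. With it, 508 tiles were slower and 184 faster.

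The 5 fastest called tiles lay between genes, in sequence of 36.2% to 37.5% GC with 350 to 433 CpGs, on NCBIM37. The fastest by log2 deviation was chr4:77900001-78000000, whose nearest protein-coding gene was Ptprd, a receptor tyrosine phosphatase of neurons, 42136 bp away. It stood at 73.8% and 78.3% on day 1 and at 10.2% and 20.7% on day 3. The tile chr5:79800001-79900000 went from 73.6% and 72.3% to 16.8% and 16.2%, and chr1:106000001-106100000 from 77.3% and 77.1% to 19.1% and 17.6%. The other 2 were chr13:80300001-80400000 and chr4:80100001-80200000. The chr13 tile had the lowest share remaining, 22.40% against 22.45% in the tile nearest Ptprd. In every one the day 1 and day 3 libraries were far apart, but a drop was called in 23272 of the 23274 tested tiles. Over the 5 tiles 22.4% to 23.7% of the day 1 level remained, and all 5 kept their call when centred on the level expected from flanks and density. Without replicate 1 or without replicate 2 of day 3, none of these 5 fastest kept it.

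The 5 slowest tiles included chr1:185800001-185900000, which holds Dusp10, a phosphatase of stress kinases, and went from 65.6% and 67.0% to 46.2% and 49.1%. The tile chr9:121000001-121100000, inside the kinase gene Ulk4, went from 77.6% and 70.9% to 51.7% and 49.2%. On the X chromosome, chrX:139200001-139300000, with Tmem164 and Ammecr1, went from 70.2% and 67.7% to 49.2% and 46.4%. The tile with Zfp503, a developmental zinc finger gene, at chr14:22800001-22900000, went from 47.2% and 39.1% to 30.8% and 30.2%. In the slowest tile of all, chr12:19300001-19400000, the day 1 libraries differed widely, at 71.1% and 42.8% against 49.1% and 37.1% on day 3. The days overlap there, and the quasi-binomial model called no drop (adjusted p = 0.144). The last 2 tiles lost their call as slower under the expected level. The part of a low day 1 level in the shares of the slowest tiles was not tested.

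The X chromosome lost methylation faster than the autosomes. It stood at 69.2% and 70.3% on day 1, like the autosomes, and at 29.8% and 31.1% on day 3, so 43.6% remained. By limma over 20 chromosomes its deviation was -0.12 ± 0.0128 (SE; adjusted p = 1.18e-06), whereas between control day 1 and day 3 it did not pass, at -0.00046 (adjusted p = 0.986). Over the 20 chromosomes 2 were called faster (10% called), X and 16, and 9 were called slower (45% called), or 4 slower once cytosines with over 20 calls were left out. The largest of the slower ones, chromosomes 2 and 9 at 0.12 and 0.13, stood at 0.0057 and 0.024 after that step, while X stood at -0.13. Without those cytosines no autosome deviated by more than 0.0259. Centred on the level expected from flanks and density, X deviated by -0.08 (adjusted p = 2.78e-29 by limma). There 5 chromosomes were faster, with 4, 7, 11 and 16 between -0.024 and -0.016 beside X, and 5 were slower, namely 8, 9, 12, 13 and 18.

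Gene bodies were read from 1 kb inside the start to the end. Of 13368 that reached 30 calls in each library, 406 were slower than the median gene (3.04% called) and 95 faster (0.711% called) by limma at a deviation of at least 0.2, and a median of 47.6% of the day 1 level remained. No gene was called between control day 1 and day 3 by the same test, with 791 at an unadjusted p below 0.05. Both directions again leaned on the day 3 libraries, with 227 slower and 35 faster called without replicate 1 of day 3, and 163 and 24 without replicate 2. The called genes were long: a median of 147290 bp for the slower and 521613 bp for the faster, against 36642.5 bp over all tested. Longer genes hold more calls, so a deviation of 0.2 is more readily called in them. Over all tested genes the median was 167 calls per library and the median SE 0.171. Whether speed itself goes with length was not tested. Overlapping genes share calls. Centred on the level expected from flanks and density, 190 were slower and 60 faster.

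Among the 10 slowest genes, Dusp10 (chr1:185837181-185899515) stood at 59.2% and 62.6% on day 1 and at 46.9% and 48.2% on day 3. Trmt2b, a transfer RNA methyltransferase gene on X (chrX:130756878-130811523), stood at 74.2% and 68.3% and then at 49.6% and 58.3%. Cyp2j13, a cytochrome P450 gene, went from 69.8% and 79.1% to 59.0% and 51.3%. Each of these deviated upwards, by 0.73 ± 0.128 (adjusted p = 0.000388), 0.70 ± 0.129 (adjusted p = 0.000705) and 0.62 ± 0.131 (adjusted p = 0.00293) by limma. In all 3 the day 3 libraries lay below the day 1 libraries, but by less than at most genes. The others were Fuca2, whose day 1 libraries at 45.4% and 82.2% overlap those of day 3, Pth1r, Serpinf1, Dhx9, Cpt1b, Padi6 and Sord. Between 69.2% and 83.7% remained over the 10, and 9 kept a call under the expected level, Pth1r being the exception. The day 1 controls stood at 74.7% and 82.8% at Dusp10, 86.1% and 81.5% at Trmt2b and 88.9% and 83.5% at Cyp2j13. In each of these genes they lay above the Dnmt1 KO libraries of day 1. The part of a low day 1 level in the shares remaining was not tested.

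Among the 10 fastest, Rnf114, a ubiquitin ligase gene (chr2:167318145-167341673), went from 65.8% and 61.7% to 11.5% and 15.4%, so 21.1% remained. Ncoa3, a nuclear receptor coactivator gene (chr2:165818136-165898742), went from 65.6% and 63.6% to 18.2% and 20.6%. Ano3, of the anoctamin family (chr2:110495358-110791080), went from 78.7% and 74.6% to 25.5% and 24.1%. Their deviations were -1.13 ± 0.28, -0.63 ± 0.134 and -0.55 ± 0.101, with adjusted p of 0.0128, 0.00328 and 0.000693 by limma. Cd226, Il11ra1, Glra2, Ahnak2, Slc22a27, Cdh7 and Zpbp completed the set, in which 21.1% to 32.4% remained. The day 1 and day 3 libraries did not overlap in any of these 10. This does not set them apart, since a median of 47.6% remained over all genes and overlap was not counted over them. Under the expected level 7 kept a call and Rnf114, Cd226 and Cdh7 did not. Il11ra1 has near-identical copies nearby, so its value is uncertain.

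The list labelled neuronal adhesion and synapse genes, most of them very long, had the most fast members. The label is that of the list as a whole and may not hold for every member. Of 34 tested, 16 were faster and 1 slower, beside the 0.711% and 3.04% of all genes. The list's median deviation was -0.21 against 0.017 over all genes. The list's median length was 1116254.5 bp, against 36642.5 bp over all tested genes. Longer genes hold more calls, so these called shares are not compared at like precision. The list was also chosen with earlier results of these data known, so its counts and median are a description. Il1rapl1, a synaptic receptor gene, went from 70.1% and 70.7% to 20.4% and 26.2%. Csmd3 went from 69.7% and 72.3% to 25.4% and 25.3%, and Cntnap2, which encodes an axonal adhesion protein, from 73.2% and 72.8% to 26.9% and 27.4%. Cadm2, Sgcz, Dpp10, Grm7, Cntnap5a, Galntl6, Pcdh9, Nrxn3, Il1rapl2, Kcnip4, Dlg2, Lrp1b and Ptprd were also called faster. Cdh13, a cadherin gene of the same list, was slower, from 78.5% and 79.2% to 42.2% and 45.4%, and Ctnna3 did not pass at a deviation of -0.02. Centred on the level expected from flanks and density, 7 were faster and 0 slower, and the median was -0.13. Cdh13 fell just below the deviation of 0.2 there, at 0.197 with an adjusted p of 4.78e-09 by limma.

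Of 25 developmental regulators tested, 6 were slower and 0 faster, beside 3.04% slower and 0.711% faster over all genes. This list too was chosen with earlier results of these data known. The regulators had a median length of 82220 bp, against 36642.5 bp over all tested genes, so these called shares are not compared at like precision. Their median deviation was 0.17 against 0.017 over all genes, and 0.10 centred on the level expected from flanks and density. Zfhx3, a transcription factor gene, went from 71.5% and 68.7% to 40.5% and 40.4%, and Runx1, a regulator of blood development, from 74.8% and 74.8% to 46.2% and 42.9%. Ebf2, Prdm16 and Pax2 were also slower, and Ebf1 did not pass at 0.11. Under the expected level 4 of the 6 kept their call, Prdm16 and Pax2 being the exceptions.

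The other lists had few called members or none, at counts near those that 3.04% slower and 0.711% faster over all genes would give, so they are a description and not a result about the lists. Of 29 imprinted genes, read here over the gene body and not at their imprinted regions, 2 were slower. Igf2r went from 72.9% and 73.5% to 42.9% and 43.8%, and Trappc9 from 78.5% and 79.4% to 39.2% and 46.4%. Kcnq1 and Commd1 did not pass, at 0.13 and 0.19. Of 16 genes that write, erase or read DNA methylation 1 was slower, Tet3, which encodes a methylcytosine dioxygenase, from 76.3% and 72.0% to 39.4% and 46.5%, with an adjusted p of 0.0498 by limma. Under the expected level Igf2r kept its call. Trappc9 fell below the deviation of 0.2, at 0.17 with an adjusted p of 0.00505 by limma, and Tet3 had 0.22 with an adjusted p of 0.18. Dnmt3a, at a deviation of -0.0002, Tet1, at -0.29, and Zbtb38, at 0.14, did not pass. No member was called in the remaining lists: the pluripotency network (15 tested, with Jarid2 at -0.16, Esrrb at 0.13 and Nr5a2 at 0.07), the small RNA pathway (23, with Drosha at 0.11, Tnrc6b at 0.18 and Tnrc6c at -0.05), transposon silencing factors (20, with Ehmt1 at -0.02, Atf7ip at 0.18 and Pphln1 at 0.06) and ribosome and RNA polymerase II genes (16, with Utp20 at 0.21, Nol10 at 0.12 and Heatr1 at 0.03).

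Around the starts of protein-coding genes, speed varied with distance. Starts were called CpG-dense where CpGs within 500 bp had a mean of 25 or more CpGs within 250 bp. Within 500 bp of dense starts, levels went from 4.15% to 1.79%. At 500 to 1000 bp they went from 18.5% to 6.56%, so 35.4% remained, over the 4 pairings 34.4% to 36.4%. At 1000 to 2000 bp 38.7% remained, and at 5000 to 10000 bp 45.9%. The lowest share of the profile, 30.2%, lay 900 bp inside the gene, where the level went from 14.7% to 4.45%, with 94.9% remaining in the controls. At other starts the share moved between 45.4% and 46.7% over the same distances. Cytosines with over 20 calls were left out here.

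**Figure D5:**
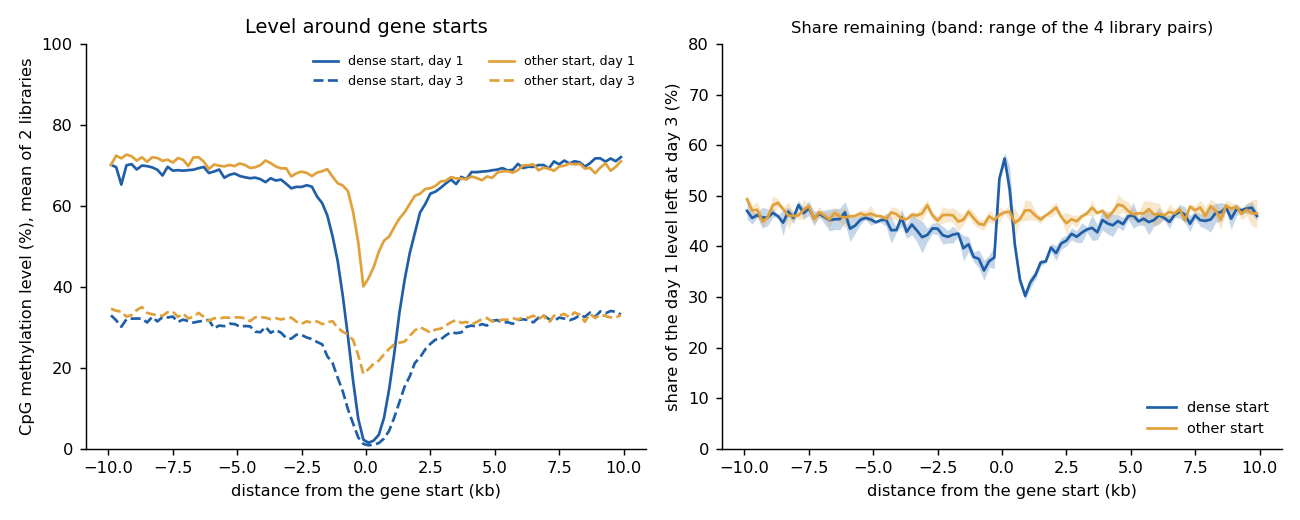
Left, the mean CpG methylation level of the 2 libraries of day 1 (solid) and day 3 (dashed) in bins of 200 bp around protein-coding gene starts, for CpG-dense and other starts. Right, the share of the day 1 level left at day 3, in percent, with a band for the range over the 4 pairings of libraries. The share dips to 30.2% on the flank of dense starts and peaks at 57.4% at 100 bp, where the level is 1.5% on day 1 and 46.2% remains after the mitochondrial share is subtracted.

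By annotation, and without those cytosines, 45.9% remained in the 1 kb before starts, 49.6% in exons, 48.8% in introns and 46.3% between genes. Over the 4 pairings the ranges were 47.7% to 49.8% for introns and 45.1% to 47.6% between genes, which came close without overlapping. With every cytosine kept, the values for promoters and exons were higher, 51.9% and 53.8%, and promoters then stood above introns, at 49.1%, instead of below them.

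Of 3890 single gene starts with at least 10 calls within 500 bp in each of the 4 libraries, 114 were lower at day 3 (2.93% called) and 0 higher by the quasi-binomial model fitted to the 4 libraries, with 5 higher at an unadjusted p below 0.05. Without replicate 1 of day 3 47 were lower, without replicate 2 of day 3 38, without replicate 1 of day 1 84 and without replicate 2 of day 1 62, and 38 were lower where at least 20 calls were required. The median control level of the 114 was 77.4%. Among the 195 starts with a control level of 50% or more, 92 were called. Dense starts were mostly without methylation: 3040 of 3268 had under 10% in the controls, and 8 had 50% or more.

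Of the 10 dense starts with the highest control level, 2 were called, Fkbp6 and Sfi1. Fkbp6, which encodes an immunophilin needed in male meiosis, stood at 82.9% and 86.7% on day 1 and at 22.0% and 92.3% on day 3, on 50 and 13 calls, so the groups overlap although the pooled calls passed, with an adjusted p of 0.00023. Sfi1, which encodes a centrin-binding protein, went from 73.1% and 73.7% to 39.7% and 46.3% (adjusted p = 2.21e-48 by the same model). It had 431 to 783 calls per library against a median of 29 at dense starts, and the part of this depth in its value was not tested. The 250 bases before the Sfi1 start are shown, 5′ to 3′ on the gene's strand with CpGs in capitals, as the dense and methylated promoter in which all 4 libraries had calls and the groups did not overlap. They were read from NCBIM37 at chr11:3093467-3093716 on the minus strand.
Sfi1: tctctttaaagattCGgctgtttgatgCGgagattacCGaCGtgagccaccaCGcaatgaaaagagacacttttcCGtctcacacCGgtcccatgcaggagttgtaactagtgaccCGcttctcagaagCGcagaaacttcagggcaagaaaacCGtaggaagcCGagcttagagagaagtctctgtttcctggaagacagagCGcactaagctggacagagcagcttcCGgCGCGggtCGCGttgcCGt
This stretch holds 18 CpGs. Over it alone, levels were 74.4% and 84.6% on day 1 and 43.2% and 52.3% on day 3.

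The other starts of this group did not pass, and their libraries scattered widely on 11 to 90 calls. At Peg10, an imprinted gene of retrotransposon origin, the level was 3.85% and 35.0% on day 1 and 37.8% and 29.6% on day 3, and its neighbour Sgce shares most of that stretch. The imprinted Nnat had an adjusted p of 0.0754 by that model. Trim52, Zar1, Sec1, Igfbp6 and Tmod1 were tested as well, with adjusted p between 0.466 and 1 by the same model.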

How the data were processed

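Whole-genome bisulfite libraries of Dnmt1 KO and control ESCs were analysed. The authors trimmed the reads with Trim Galore and aligned them with Bismark to NCBIM37 (version 0.12.3 in the submitters' processing notes), removed duplicates, and deposited for each cytosine of a CpG the counts of methylated and unmethylated calls and the percent methylated. The deposited percent was not used. Counts were summed over both strands, or by strand for hexamers, in tiles, classes and genes (GENCODE vM1). Depth was 7898404 to 10881547 calls per library in the comparison, and precision is given by the spread of 2 libraries. As the replicates are described only as biological, p-values refer to these samples alone. Those of limma use a spread estimated from all 18 libraries and moderated over features. Those of the quasi-binomial model rest on call counts, with a dispersion moderated over features and never below that of binomial counts. A low p can therefore stand beside libraries that disagree, as at Fkbp6.

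Speed was tested with limma 3.58.1 (R 4.3.3) on log2((methylated + 0.5)/(calls + 1)), centred per library, with weights from calls and level, over all 18 libraries with 1 level per genotype and day, and Benjamini-Hochberg adjustment over all features. Changes of level were tested with a quasi-binomial model with dispersions moderated by limma, over all libraries for tiles and over the 4 for gene starts. edgeR 4.0.16 was an alternative. Scripts were tested on simulated data. Named tiles and genes were the slowest and fastest called ones (5 tiles and 10 genes each way) with all 4 pairings on the same side, hexamers the 5 at either end, list members every called one plus the 3 with most calls, and starts the 10 dense ones with the highest control level. Genes with only a Gm or Rik name were passed over by the rule. The values of 1 called list member are not reported here. Members, lists and rules were chosen with earlier results of these data known. Repeat classes were not analysed here, since the reference was not masked. Same-numbered replicates were checked for pairing (r = 0.00934 between the replicate differences of day 1 and day 3 over 23274 tiles), so the number was not used as a block.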

Additional observations from a re-analysis of the deposited data

How the results depend on the processing

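Some orders and signs turned. Promoters kept more than introns with every cytosine and less without those over 20 calls, and the step from 10 to 14 to 15 to 24 CpGs went from 52.7% and 54.1% to 51.2% and 50.7%. Chromosomes 5 and 17, called slower at 0.013 and 0.027, stood at 0.0088 and 0.015 without cytosines over 20 calls, where neither was called, and at -0.0048 and -0.0012 when also centred on the expected level. The centring on the expected level and leaving out cytosines over 20 calls from hexamers, strand pairs and annotation classes were chosen after seeing the data. Methylation dropped by 35.5 to 36.7 points when 1 of the 4 libraries was left out, and 36.1 otherwise. Called slower tiles numbered 1370, but 22 with tiles of 50 kb, 113 with at least 200 calls, 106 centred on the library level, 508 centred on the level expected from flanks and density, and 148 to 1048 without 1 library. Called faster tiles numbered 96, but 2 with 50 kb, 334 with 200 kb, 6 with 200 calls, 37 with the 4 Dnmt1 KO libraries alone, 165 in points, 39 centred on the library level, 184 on the expected level, and 0 to 74 without 1 library. Given start and density, 2 to 5 were slower and 0 to 1 faster without 1 library. Lower tiles numbered 12592 with tiles of 200 kb and 14441 with 200 calls, since fewer tiles were tested, and 23266 to 23270 without 1 library. Slower genes numbered 190 and faster genes 60 on the expected level, faster genes 155 with at least 100 calls, and without 1 library 163 to 358 were slower and 24 to 83 faster. Lower gene starts numbered 38 with at least 20 calls and 38 to 84 without 1 library. For hexamers, 85 to 88 were slower and 70 to 76 faster without 1 library, and for strand pairs 91 to 94 differed. The X deviation ran from -0.13 to -0.11. Apart from the smaller number of features tested, the cause of these moves was not tested.

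For windows of 100 bp and 500 bp the share remaining was 44.8% and 37.1% at 1 to 2 CpGs, 49.0% and 39.9% at 3 to 4, 52.4% and 45.4% at 5 to 9, and 55.6% and 52.3% at 15 to 24. At 10 to 14 it was 49.978% with 500 bp, at 25 to 39 65.8% with 100 bp, and at 40 or more 47.1% and 48.2%. With the 250 bp used here, 62.4% remained at 40 or more, and 53.9% less the mitochondrial share. The other windows change what a class holds. Without cytosines over 20 calls it was 51.2% at 10 to 14, 50.7% at 15 to 24, 45.9% in promoters and 49.6% in exons. Without 1 library the 7 classes ran from 39.5% to 41.8%, 43.7% to 45.8%, 48.5% to 50.4%, 51.9% to 53.6%, 53.6% to 54.6%, 49.9% to 54.9% and 60.1% to 64.7%. Promoters ran from 51.1% to 52.8%, exons from 53.4% to 54.3%, introns from 48.2% to 49.9% and intergenic CpGs from 45.4% to 47.5%. With the start taken from 1 Dnmt1 KO library of day 1 and the level from the other, 42.4%, 43.7%, 46.5%, 50.024% and 48.3% remained at starts of 20%, 30%, 60%, 70% and 90%. Without 1 library the steps of start from 10% upwards ran from 39.7% to 41.5%, 40.8% to 41.8%, 42.2% to 43.1%, 43.2% to 43.7%, 43.7% to 44.8%, 43.3% to 45.3%, 43.9% to 46.0%, 49.1% to 51.1% and 50.3% to 52.8%.

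With the replicate number as a block the counts were 1496 slower and 109 faster tiles, 4 slower and 0 faster given start and density, 23272 lower tiles, 427 slower and 96 faster genes, 95 lower starts, 87 slower and 70 faster hexamers, 92 strand pairs, and an X deviation of -0.12. Whether same-numbered samples share more than a number is not known. The replicate differences of day 1 and day 3 had an r of 0.00934 over tiles, but these values were centred on each library. A shift shared by a whole culture would therefore not show in that check. Of the 46 named gene bodies, 22 kept their call without replicate 1 of day 3 and 17 without replicate 2. Of the 10 named tiles, 3 and 2 did. The 10 named hexamers kept theirs throughout. About 1 call per cytosine limits every statement to sums over many CpGs.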
